A study of Arabidopsis thaliana with 4 samples.

Results

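The comparison described here is that of GR-REV seedlings given dexamethasone with GR-REV seedlings given the carrier alone (mock). It rests on 2 of the 4 arrays of the study, chosen by their titles, and covers all 22746 probe sets that remained after 64 control probe sets were dropped. The stated aim of the study was to find genes directly downstream of REVOLUTA (REV). Seedlings grew in shaken liquid culture under continuous light for 10 days, and tissue was frozen 1 h after treatment.

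The GR-REV dexamethasone group was 1 flask of transgenic Landsberg erecta (Ler) seedlings in 50 µg/ml dexamethasone and 0.1% ethanol. The GR-REV mock group was 1 flask of the same transgenic seedlings in 0.1% ethanol. Both carried REV with the glucocorticoid receptor (GR) domain joined to its amino terminus, driven by the constitutive viral 35S promoter and mutated so that microRNAs no longer pair with the transcript. The remaining groups, wild type dexamethasone and wild type mock, were 1 flask each of Ler seedlings under the same treatments, without the transgene. The fusion was thus present in both GR-REV flasks and was not limited to the cells where REV is normally found. Each flask gave RNA from 100 mg of seedling tissue to 1 Affymetrix ATH1 array.

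REV is one of the class III homeodomain-leucine zipper (HD-ZIP III) transcription factors. They specify the adaxial, upper side of leaves, pattern the vascular tissue and maintain the shoot meristem, and microRNAs of the miR165/166 family clear their transcripts from the abaxial side. A transcription factor joined to GR is held in the cytoplasm until dexamethasone releases it to the nucleus, so that early transcript differences can be read soon after the steroid is added.

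Titles and treatment protocols assign dexamethasone to one GR-REV array and mock to the other, and the source names assign them the opposite way. Titles and protocols are followed here, and under the source names every GR-REV difference below would change sign. With 1 flask and 1 array per group there is no replicate error, so no p-value, standard error or SD between replicates can be given, and a difference between flasks cannot be told apart from an effect of treatment. Signals are linear MAS5 intensities. Values below 91.4, the 40th percentile of all signals, were raised to that floor before log2 was taken, and differences are dexamethasone minus mock on the log2 scale unless a fold is named. A probe set at the floor on one array gives only a bound.

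Among named genes, the largest excesses with dexamethasone over mock in GR-REV seedlings included those of AT3G50560, a pair of GDSL-type lipase genes and the cell wall gene XTH32. The lowest included OSM34, the plant defensin genes PDF1.2 and PDF1.2b and the UDP-glycosyltransferase gene UGT76C2. With dexamethasone, 278 probe sets (1.22% of 22746) exceeded mock by 2-fold or more and 275 (1.21%) fell short of it by as much, together 553 (2.43%). The wild type pair, which lacks the fusion, had 126 higher (0.554%) and 381 lower (1.68%), together 507 (2.23%). The total share past 2-fold was thus similar in seedlings with and without the fusion, whereas the split by direction was even in GR-REV and not in wild type. The wild type split depends on scaling, being 212 higher and 249 lower after quantile normalization and 310 and 176 after division by the array median.

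At larger folds the GR-REV pair held more probe sets than the wild type pair. The order was the reverse at 1.5-fold, with 1988 probe sets either way in GR-REV against 2599 in wild type. At 3-fold there were 68 higher and 48 lower in GR-REV, against 19 and 34 in wild type. At 4-fold the totals were 44 for the fusion line and 21 for wild type, and at 5-fold 17 and 6. No test of these counts was possible with 1 array each.

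The difference depended on signal level. Among the 12820 probe sets above the floor on both GR-REV arrays, the SD of the difference across probe sets was 0.43, and the central 95% ran from -0.90 to 0.88. The matching figures in wild type, over 13101 probe sets, were 0.44 and -0.99 to 0.76. In the dimmest of 5 equal bins of mean signal 4.29% of GR-REV probe sets were past 2-fold, in the brightest 2.18%. The central 95% was widest in the second dimmest bin, -0.99 to 0.98, and narrowest in the brightest, -0.78 to 0.66. A given fold therefore lay further outside the bulk for a bright gene than for a dim one. The medians of the GR-REV bins stayed between -0.01 and 0.02. In wild type the bin median rose from -0.18 in the dimmest to 0.13 in the brightest. Wild type differences below, of genes and of lists, thus also depend on signal level.

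**Figure D1:**
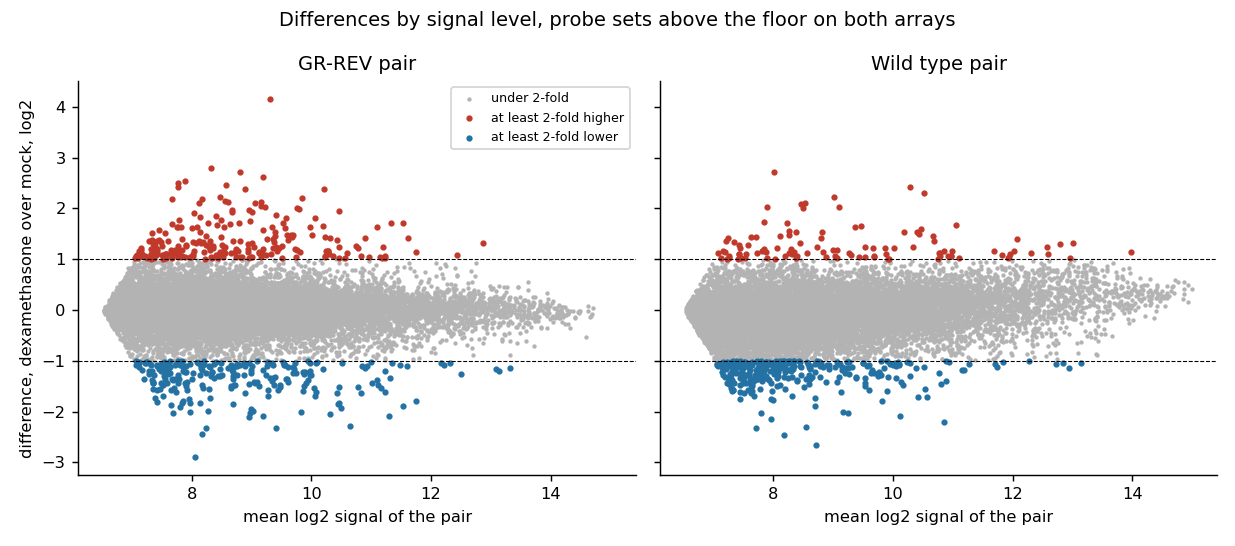
Each point is 1 probe set above the floor on both arrays of a pair, with its mean log2 signal on the x axis and its log2 difference, dexamethasone over mock, on the y axis, for the GR-REV pair (left) and the wild type pair (right). Colour marks at least 2-fold, and the GR-REV pair shows 230 higher and 237 lower, with the highest point at 4.16.

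The plot of differences against signal level shows that the spread of the GR-REV pair lies evenly about 0, its median being 0.01. The highest point and the lowest difference of all, a bound of -3.94, belong to probe sets with no single gene listed. Among probe sets paired with exactly 1 gene, the extremes were 3.01, a bound, and -2.44. Of 7541 probe sets with 1 gene and a signal above the floor on at least 1 GR-REV array, 135 (1.79%) passed 2-fold upwards and 113 (1.5%) downwards, together 248 (3.29%). Without regard to gene names, the shares among the 14007 that exceeded the floor on 1 or both GR-REV arrays were 1.98% higher and 1.96% lower, 3.95% either way, and those among 14662 in wild type 0.859% and 2.6%, 3.46% either way. The counts of gene lists below are to be read against these shares, and every gene named below comes from a probe set with 1 gene. In whole seedlings a lower signal may mean fewer cells of a type or less RNA per cell, and these cannot be told apart.

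AT3G50560 had the largest difference measured on both arrays. Its signal was 1145 with dexamethasone and 174 with mock in GR-REV, against 169 with dexamethasone and 161 with mock in wild type. The GR-REV difference was 2.72, or 6.57-fold, and the wild type difference 0.07. Only the GR-REV dexamethasone array was high.

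A pair of genes for GDSL-type esterases and lipases, secreted enzymes that act on lipids of the cuticle and other substrates, came next. AT4G18970 had 1089 with dexamethasone and 207 with mock in GR-REV, against 406 and 349 in wild type dexamethasone and mock. AT4G28780 had 765 with dexamethasone and 164 with mock in GR-REV, against 476 and 333 in wild type. Both were highest in GR-REV dexamethasone, and both were lower in GR-REV mock than on either wild type array. Their GR-REV differences were 2.39 and 2.22, against wild type differences of 0.22 and 0.51.

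A list of GDSL-type genes by locus, which includes AT4G18970 and AT4G28780, was made after values had been seen, so the count below describes and supports nothing. Of 29 members above the floor, 5 passed 2-fold upwards, these genes among them, and 1 downwards, with a median of 0.07, against 0.01 for all probe sets. AT5G18430 had 236 with dexamethasone and 109 with mock in GR-REV, a difference of 1.11. AT5G45950 and AT5G45670 were above the floor with dexamethasone only, at least 2.57-fold and 2.47-fold above mock. AT5G55050 was the lower member, at 199.6 with dexamethasone and 422 with mock in GR-REV. It was also lower in wild type, by -1.41 against -1.08 in GR-REV.

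Enzymes that remodel the cell wall were a second set among the higher genes. XTH32 encodes a xyloglucan endotransglucosylase/hydrolase, which cuts and rejoins the hemicellulose between cellulose fibres. Its signal was 2776 with dexamethasone and 714 with mock in GR-REV, against 1124 with dexamethasone and 623 with mock in wild type. The difference of 1.96 in GR-REV stood beside one of 0.85 in wild type, in the same direction. XTH16 had 458 with dexamethasone and 226 with mock in GR-REV, and was higher still in both wild type flasks, at 564 with dexamethasone and 682 with mock. Here the low array was that of GR-REV mock. Of 6 XTH probe sets above the floor, 2 were at least 2-fold higher, none lower, and 5 lay above 0, with a median of 0.76, against -0.17 in wild type. With the floor at the 60th percentile the median was 0.45. EXGT-A3, of the same family, was next at 0.87, and XTH18 was the one below 0, at -0.41.

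Expansins loosen the wall without cutting its polymers. EXPA8 had 282 with dexamethasone and 91.3 with mock in GR-REV, just below the floor, against 132 and 130.5 in wild type dexamethasone and mock. EXLA2, an expansin-like gene, had 268 with dexamethasone and 49.0 with mock in GR-REV, against 100.0 and 96.2 in wild type. Both were highest with dexamethasone and lowest with mock in GR-REV, and exceeded mock by at least 3.08-fold and 2.94-fold. The other 8 expansin probe sets above the floor were under 2-fold, and the median of the 10 was 0.14. Restricted to the 5 above the floor on both arrays it was -0.01, so the expansins as a list had no direction that held.

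Genes for cellulose synthase-like enzymes and for the cytoskeleton leaned to the higher side without any at 2-fold. Of 6 cellulose synthase-like members, 5 lay above 0 with a median of 0.49, led by CSLC04, a xyloglucan backbone synthase gene, at 0.79. Of 8 tubulin and actin members, 7 lay above 0 with a median of 0.47, against 0.16 in wild type. ACT11, an actin gene, was at 0.89 and TUB1, a β-tubulin gene, at 0.88. In wild type TUB1 was at 1.02. A floor at the 60th percentile lowered the medians to 0.29 for the cellulose synthase-like and 0.17 for the tubulin and actin list.

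AT4G22490, of the lipid-transfer protein type, was among the highest 15 and had 1164 with dexamethasone and 282 with mock in GR-REV, against 732 and 273 in wild type dexamethasone and mock. Both dexamethasone arrays were high, and the differences were 2.04 and 1.42. AT1G62500, another of this type, gave only a bound and had 304 with dexamethasone and 46.9, below the floor, with mock in GR-REV. It was thereby at least 3.33-fold higher in GR-REV, and its wild type difference was 0.90.

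AT3G13610 encodes F6'H1, the enzyme that commits phenylpropanoids to the coumarin scopoletin. Its signal was 796 with dexamethasone and 209 with mock in GR-REV, against 663 with dexamethasone and 100.3 with mock in wild type. Both dexamethasone arrays were again high, and the difference was larger in wild type (2.72) than in GR-REV (1.93). AT1G12080 had the same direction in both pairs, 2.04 in GR-REV and 1.13 in wild type, from 1213 with dexamethasone and 295 with mock in GR-REV. Neither gene therefore separated the seedlings with the fusion from those without it by direction.

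The remaining genes of the highest 15 differed in which array set the difference. AT3G12710, a DNA glycosylase family gene, had 1189 with dexamethasone and 274 with mock in GR-REV, against 408 and 320 in wild type dexamethasone and mock. AT5G50335 had 925 with dexamethasone and 273 with mock in GR-REV, against 294 and 278 in wild type. Both stood out for GR-REV dexamethasone, with differences of 2.12 and 1.76. AT3G22240 was at 4665 with dexamethasone and 1413 with mock in GR-REV, against 447 and 568 in wild type, so that both GR-REV arrays were high. AT2G44370, a C1-domain gene, was at 654 with dexamethasone and 210.3 with mock in GR-REV, against 462 and 450.0 in wild type. In it the GR-REV mock array lay below the other 3. AT1G32090 (1.97), AT1G69160 (1.78), AT3G06070 (1.78) and the thaumatin family gene AT4G38660 (1.63) completed the highest 15.

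Some genes were above the floor with dexamethasone and not with mock. AT1G70985 had 738 with dexamethasone and 66.0 with mock in GR-REV, against 82.0 and 14.6 in wild type dexamethasone and mock. AT3G46490 had 524 with dexamethasone and 39.2 with mock in GR-REV, against 69.9 and 47.4 in wild type. Both exceeded the floor only on the GR-REV dexamethasone array, at least 8.07-fold and 5.73-fold higher than mock. AT1G18830, which the gene table groups with secretory SEC genes, was at least 3.73-fold higher, at 341 with dexamethasone and 34.9 with mock in GR-REV.

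**Figure D2:**
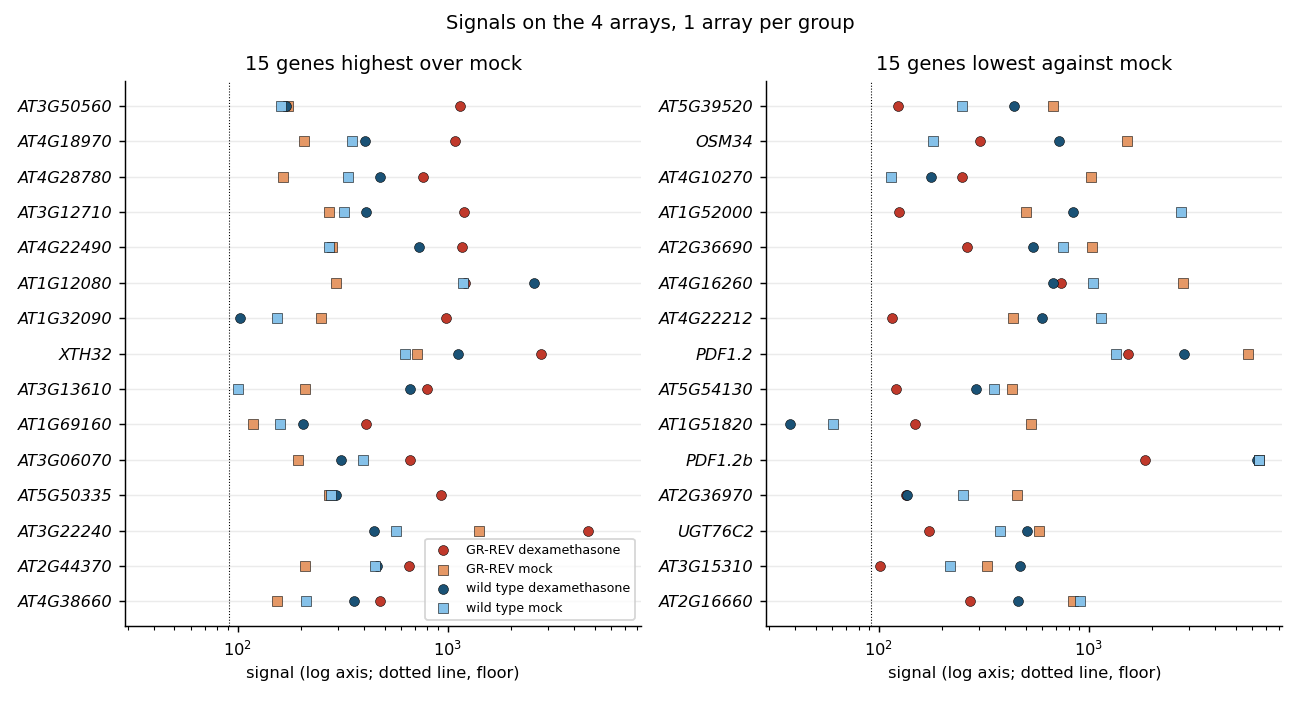
Signals (x axis, log scale) of the 15 genes with the highest and the 15 with the lowest GR-REV difference among those above the floor (dotted line) on both GR-REV arrays, 1 point per array and gene. AT3G50560 shows 1 high array, GR-REV dexamethasone at 1145, whereas for OSM34 the high array is GR-REV mock at 1522.

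The plot of signals of the most different genes shows that in some the dexamethasone array and in others the mock array of GR-REV stood apart. Among all 278 higher probe sets, GR-REV dexamethasone held the highest of the 4 signals in 215 (77.3%), and GR-REV mock the lowest in 183 (65.8%). Among the 275 lower ones, GR-REV dexamethasone held the lowest in 190 (69.1%), and GR-REV mock the highest in 173 (62.9%). Both conditions were met in 120 higher and in 89 lower probe sets. These shares are in part fixed by choosing probe sets on the same 2 arrays.

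Among genes above the floor on both GR-REV arrays, the lower ones were led by AT5G39520 and OSM34. AT5G39520 had 124 with dexamethasone and 674 with mock in GR-REV, against 441 and 248 in wild type dexamethasone and mock. OSM34, an osmotin-like gene of the thaumatin-type pathogenesis-related proteins, had 302 with dexamethasone and 1522 with mock in GR-REV, against 722 and 180.1 in wild type. GR-REV mock was the highest array for each. In wild type the direction was the opposite, 0.83 for AT5G39520 and 2.00 for OSM34, against -2.44 and -2.33 in GR-REV. AT2G36690 (-1.98, against -0.48 in wild type) and AT2G16660 (-1.63, against -0.98) were also among the lowest 15. The 5 largest bounds downwards were above the floor with mock only. They were AT4G29700 (at least 3.50-fold lower), AT3G44970 (2.98-fold), AT1G19200 (2.75-fold), AT1G27990 (2.69-fold) and AT1G20070 (2.57-fold).

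Plant defensins are short cysteine-rich peptides against fungi, and PDF1.2 is a common marker of the jasmonate and ethylene defence response. PDF1.2 had 1541 with dexamethasone and 5721 with mock in GR-REV, against 2822 with dexamethasone and 1341 with mock in wild type. PDF1.2b had 1854 with dexamethasone and 6438 with mock in GR-REV, against 6287 and 6447 in wild type. PDF1.4 had 477 with dexamethasone and 1279.9 with mock in GR-REV, against 865 and 2555 in wild type. The GR-REV differences of the 3 genes were -1.89, -1.80 and -1.42, and their wild type differences 1.07, -0.04 and -1.56. In wild type the 3 genes thus went opposite ways, with PDF1.2b near 0. The PDF1.2 genes are near-identical copies, and their probe sets may read each other's transcripts.

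Of the 7 defensin and pathogenesis-related probe sets above the floor, 4 were at least 2-fold lower and none higher. Their median was -1.42 in GR-REV and 0.02 in wild type, where 2 were higher and 1 lower. The low-molecular-weight cysteine-rich genes LCR68 and LCR69 lay on the other side, at 0.35 and 0.70. The LCR symbol family also holds PDF1.2 and ran from -1.89 to 0.70. Of the 7 probe sets, 5 lay below 0 and 2 above, so the list did not go one way throughout. AT4G22212, a defensin-like gene outside the list, had 115 with dexamethasone and 437 with mock in GR-REV, against 594 and 1144 in wild type. It was lowest with dexamethasone in GR-REV and lower with it in wild type as well.

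Further genes known from wounding and pathogen responses were among the lowest 15. AT4G10270, of the wound-responsive family, had 249.7 with dexamethasone and 1022 with mock in GR-REV, against 177 and 114 in wild type dexamethasone and mock. AT4G16260, a β-1,3-glucanase gene, had 734 with dexamethasone and 2807 with mock in GR-REV, against 675 and 1045 in wild type. For both it was GR-REV mock that stood above the other 3 arrays, so that GR-REV dexamethasone lay near the wild type range. AT1G51820, a leucine-rich repeat receptor kinase gene, had 149 with dexamethasone and 529 with mock in GR-REV, and both wild type arrays were below the floor. Its difference was -1.82. AT1G52000, a jacalin-type lectin gene, had 125 with dexamethasone and 503 with mock in GR-REV, against 840.2 and 2740.3 in wild type, lower with dexamethasone in both. The lectin list used matched 5 probe sets, AT1G52000 not among them, so it does not speak for lectin genes as a whole, in either direction. That list and the chitinase list held none past 2-fold. The largest differences were -0.36 for JAL33 among 3 lectin probe sets above the floor and -0.29 for ChiC among 2 chitinase probe sets.

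UDP-glycosyltransferases attach sugars to hormones and secondary metabolites. UGT76C2, which inactivates cytokinins by N-glucosylation, had 174 with dexamethasone and 579 with mock in GR-REV, against 509.7 and 379 in wild type dexamethasone and mock. GR-REV dexamethasone was the lowest array, and the difference was -1.74, against 0.43 in wild type. AT2G36970, another glycosyltransferase gene not in the symbol list, had 134 with dexamethasone and 455 with mock in GR-REV, against 136 and 251 in wild type. UGT85A2 had 554 with dexamethasone and 1309.8 with mock in GR-REV, against 533 and 1266 in wild type. Both genes were low on both dexamethasone arrays, and the UGT85A2 differences were alike at -1.24 and -1.25.

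Of 29 UGT probe sets above the floor, 4 were at least 2-fold lower, 1 was higher and 22 lay below 0, with a median of -0.46, or -0.25 with the floor at the 60th percentile. The wild type median was -0.39, with 2 lower and none higher, so the UGT list leaned the same way without the fusion. GT72B1, which acts on xenobiotics and monolignols, was at -1.29 and UGT84A3, which makes phenylpropanoid glucose esters, at -1.05. UGT73B4 was the higher member, at 211 with dexamethasone and 97.8 with mock in GR-REV, both wild type arrays lying below the floor.

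**Figure D3:**
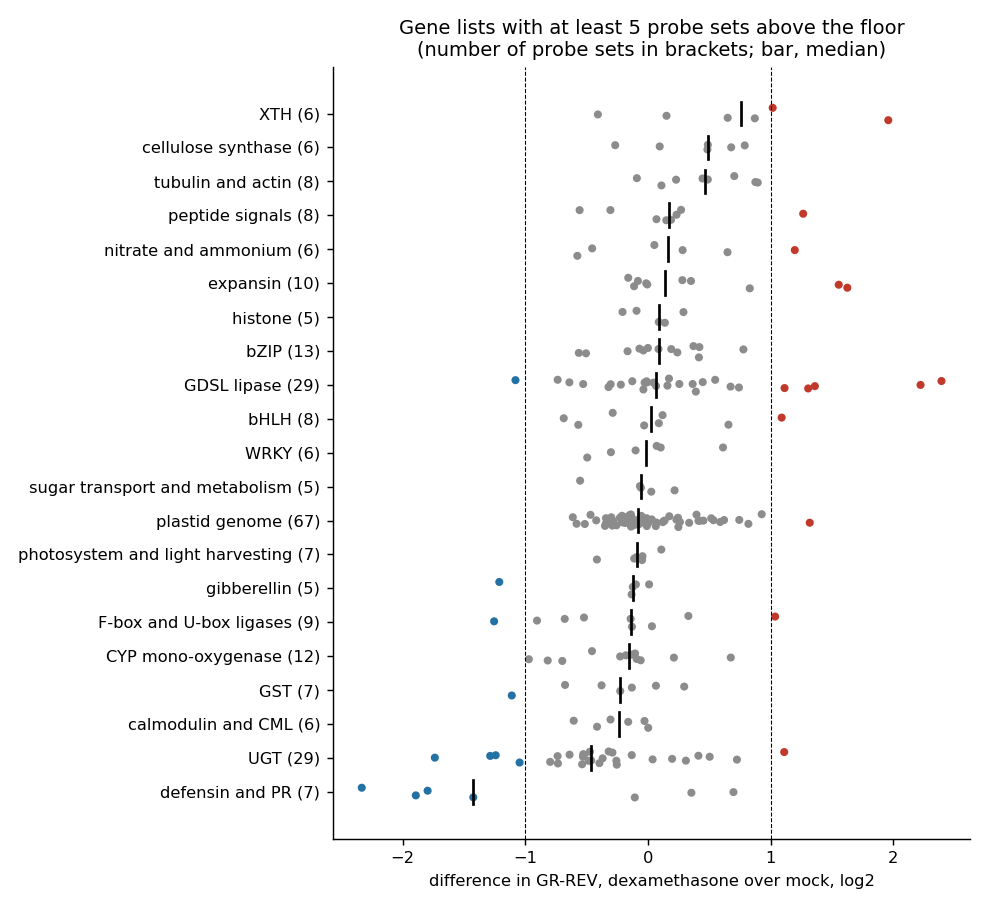
Each point is 1 probe set of a gene list, with its log2 difference in GR-REV, dexamethasone over mock, on the x axis, for lists with at least 5 probe sets above the floor, ordered by median (bar), with dashed lines at 2-fold. XTH lies at the top with a median of 0.76 and the defensin and pathogenesis-related list at the bottom with -1.42.

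The plot of gene lists shows that most lists straddled 0. Of 7 photosystem and light-harvesting genes none reached 2-fold, and the median was -0.09. The 67 plastid-encoded probe sets above the floor, grouped after values had been seen, had a median of -0.08, with 42 below 0 and 25 above, against 0.17 in wild type. Among them psbK, a photosystem II subunit gene, was at least 2-fold higher, at 11844 with dexamethasone and 4749 with mock in GR-REV, against 5518 and 4498 in wild type. Of 12 cytochrome P450 probe sets matched by symbol, mostly of CYP71B genes, none was past 2-fold and 10 lay below 0, with a median of -0.16. Cytochrome P450 genes named by locus alone were not on that list, so the count does not cover the whole family. The 6 WRKY defence factor genes (median -0.01), 13 bZIP genes (0.09), 5 histone genes (0.09) and 5 SWEET sugar transporter genes (-0.06) held none past 2-fold either.

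Transcription factor and hormone genes were represented thinly, because the annotation pairs many of their probe sets with no gene. PHV was the one HD-ZIP III gene matched, at 384 with dexamethasone and 314 with mock in GR-REV, against 276 and 342 in wild type dexamethasone and mock. Its difference was 0.29, under 2-fold. HAT2, an auxin-responsive HD-ZIP II gene, had 1074 with dexamethasone and 405 with mock in GR-REV, against 463 and 450.0 in wild type. One array was high and 3 were close together, with differences of 1.41 and 0.04. The clock gene GI was at 0.54 in GR-REV and -0.79 in wild type.

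SPT, which encodes the bHLH factor SPATULA of carpel and cotyledon growth, had 262 with dexamethasone and 100.5 with mock in GR-REV, against 113 with dexamethasone and 229 with mock in wild type. It was high in GR-REV dexamethasone and in wild type mock, so its differences, 1.38 and -1.02, were opposite. BHLH101, an iron-deficiency factor gene, had 197 with dexamethasone and 92.6, just above the floor, with mock in GR-REV. TCP15, a growth-regulating TCP factor gene, was at least 2.03-fold higher, at 186 with dexamethasone and 75.0, below the floor, with mock in GR-REV. The wild type signals of TCP15 lay between these, at 122 and 129.8 with dexamethasone and mock.

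Hormone genes past 2-fold were few. GH3.3, which conjugates auxin to amino acids, had 299 with dexamethasone and 728 with mock in GR-REV, against 455 and 725 in wild type dexamethasone and mock. GID1B, a gibberellin receptor gene, had 155 with dexamethasone and 359 with mock in GR-REV, against 219.9 and 443 in wild type. Both were lower with dexamethasone in either genotype, by -1.29 and -1.21 in GR-REV and by -0.67 and -1.01 in wild type. The receptor genes GID1A and GID1C were at 0.01 and -0.12 in GR-REV. RR16, a cytokinin response regulator gene, was at -0.81 and the auxin repressor gene IAA18 at 0.61, both under 2-fold.

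Several single members of other lists passed 2-fold. STOMAGEN, a peptide that promotes stomata, had 498 with dexamethasone and 207 with mock in GR-REV, against 1024 and 719.8 in wild type, where both arrays were higher. AT5G48570, a heat-induced FKBP-type gene, had 373 with dexamethasone and 154 with mock in GR-REV, against 203 and 204 in wild type. AT1G68570, of the nitrate transporter family, had 741 with dexamethasone and 323 with mock in GR-REV, against 827 and 916 in wild type. AT5G48570 was highest in GR-REV dexamethasone, whereas AT1G68570 was lowest in GR-REV mock. The ubiquitin ligase genes PUB25 and PUB22 lay in opposite directions, at 1.04 and -1.25. MT1C, a metallothionein gene, had 3741 with dexamethasone and 8911 with mock in GR-REV, against 9075 and 7107 in wild type, so one array was low. BCAT4, of methionine-derived glucosinolate synthesis, was at -1.09 in GR-REV and -0.71 in wild type, and the glutathione transferase gene GSTU16 at -1.11 and -0.65.

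AGO7 and ULT1 were singled out after their values were seen. AGO7, the Argonaute of the trans-acting siRNA pathway that restricts abaxial auxin response factors, had 263 with dexamethasone and 104 with mock in GR-REV, against 131 and 126 in wild type dexamethasone and mock. ULT1, a trithorax-type regulator of meristem size, had 97.6 with dexamethasone and 199 with mock in GR-REV, against 203 and 192 in wild type. In each the GR-REV dexamethasone array lay apart from 3 close ones, with differences of 1.33 and -1.03. Both genes fell under 2-fold with the floor at the 60th percentile, where their differences were 0, and with the floor value added (0.85 and -0.62), and ULT1 also after quantile normalization (-0.97).

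Setting the wild type pair beside the GR-REV pair split the differences into 3 classes. A wild type pair was called flat where, after the floor was applied, the higher of its signals was at most 25% above the lower. Pairs with both wild type arrays below the floor therefore count as flat whatever their signals, as for AT1G51820 and AT1G70985. Of the 278 higher probe sets, the wild type pair was flat in 123 (0.541% of all probe sets), differed in the same direction in 106 and opposite in 49. Of the 275 lower ones it was flat in 86 (0.378% of all), in the same direction in 167 and opposite in 22. A shared direction was thus found in 60.7% of the lower and 38.1% of the higher probe sets. Among all 14007 probe sets above the floor on 1 or both GR-REV arrays, the wild type pair was lower in 26.4%, higher in 15.8% and flat in 57.9%, so it leaned to the lower side there too. In the comparison of scalings, the median difference of the wild type pair itself was -0.05, and 0.14 with division by the array median.

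Higher genes with a flat wild type pair, besides AT3G50560, AT4G18970, AT5G50335 and AT2G44370, included a protease gene of high signal. AT1G66180, an aspartyl protease gene, had 3825 with dexamethasone and 1239 with mock in GR-REV, against 2200.2 and 2109.8 in wild type dexamethasone and mock. AT1G12845 had 1009 with dexamethasone and 336 with mock in GR-REV, against 609 and 676 in wild type. In both, the wild type arrays lay between the GR-REV arrays. AT5G60800 (1.63) had the same order, and AT1G26390 (1.51), a berberine bridge enzyme-like gene, was below the floor in wild type.

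Lower genes with a flat wild type pair were led by AT5G54130, AT1G51820 and PDF1.2b, and included the peroxidase gene AT4G08780 at -1.57 and the berberine bridge enzyme-like gene AT5G44380 at -1.54. AT5G54130 was at -1.84 on one probe set, flat in wild type, and at -0.77, a bound, on its other, where wild type was at -1.05. AT4G08780 had 116 with dexamethasone and 347 with mock in GR-REV, against 135 and 120.0 in wild type. AT1G75190 had 143 with dexamethasone and 400.3 with mock in GR-REV, against 165.0 and 164.6 in wild type. For both GR-REV mock was the one high array. The subtilase gene SBT4.12 (-1.44) and AT5G23830 (-1.43) also had their highest signal there.

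**Figure D4:**
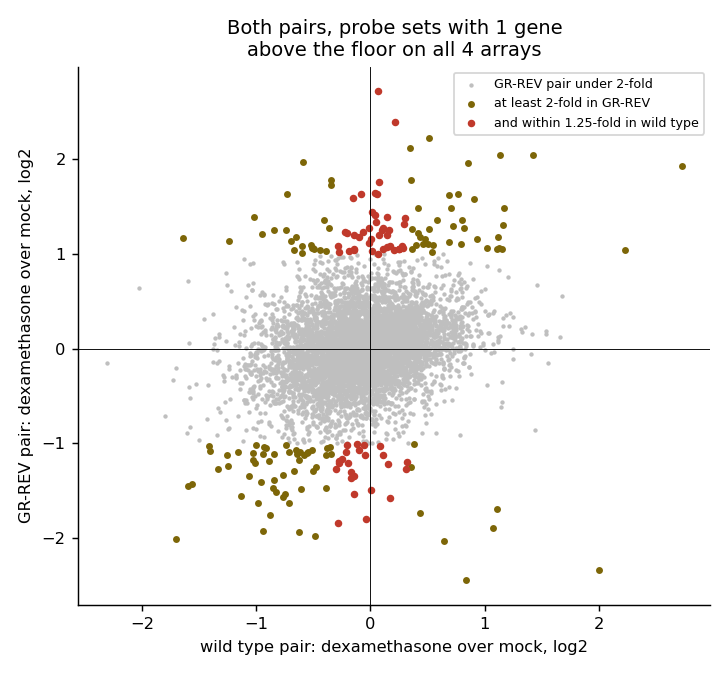
Each point is 1 probe set with 1 gene above the floor on all 4 arrays, with its wild type difference on the x axis and its GR-REV difference on the y axis, both log2 dexamethasone over mock. Red points are at least 2-fold in GR-REV and flat in wild type (at most 25% apart), and the point at 2.00 in wild type and -2.33 in GR-REV is OSM34.

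The plot of both pairs places AT3G50560 at the top on the vertical axis and AT3G13610 farthest to the right among the higher genes. Opposite differences, at least 2-fold in GR-REV and at least 1.5-fold the other way in wild type, were found for 19 probe sets with 1 gene. AT3G15310 was one, at 102 with dexamethasone and 328 with mock in GR-REV, against 469 and 217 in wild type dexamethasone and mock. AT5G50450 had 394 with dexamethasone and 175 with mock in GR-REV, against 113 and 351 in wild type. AT1G02300 had 547 with dexamethasone and 249.8 with mock in GR-REV, against 514 and 1215 in wild type. Under the treatments of the source names these genes would share a direction between genotypes, and those that share one now would be opposite.

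Genes with several probe sets gave a check within the same RNA. Of 56 genes with more than 1 probe set above the floor on both GR-REV arrays, all probe sets shared a sign in 31 (55.4%), against 34 of 53 in wild type. With a pair of probe sets per gene, unrelated signs would often agree too, so this share alone shows little. The median gap between the lowest and highest probe set was 0.30, with a gap under 0.5 in 40 genes and of at least 1 in 3. In 4 of these genes 1 probe set was past 2-fold, and in none of them were all. AT1G22330 was not counted, since one of its probe sets was below the floor with mock. It was past 2-fold on that one (1.22, a bound) and on another (1.08), against 0.26 and -0.28 in wild type. AT2G31110, of the trichome birefringence-like family that acetylates wall polysaccharides, had differences of 1.18 and 0.91 on its probe sets, against -0.65 and -0.43 in wild type. In 8 of 11 genes with a probe set past 1.5-fold all probe sets shared a sign. Probe sets of 1 gene share the flask, the RNA and the array, so they speak to the probe and not to the treatment.

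**Figure D5:**
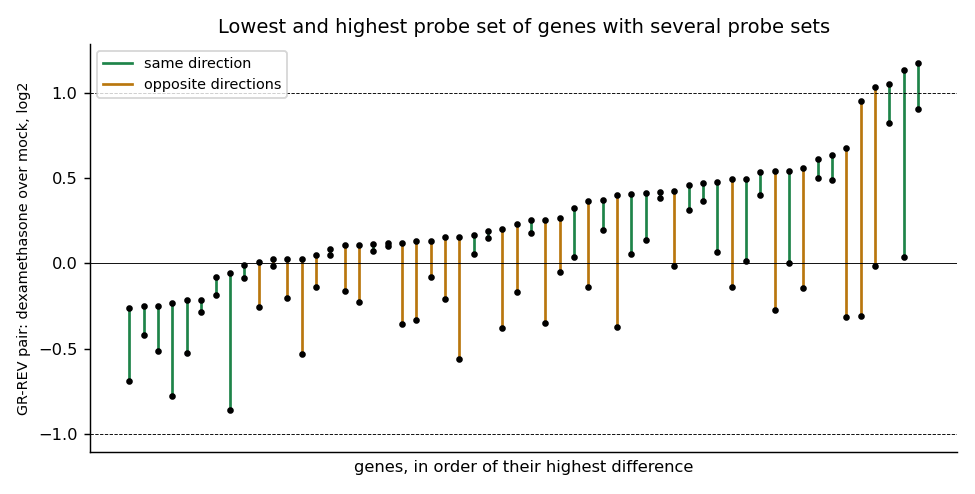
For each of 56 genes with several probe sets above the floor on both GR-REV arrays (x axis, in order of the highest), a line joins its lowest and highest log2 difference, dexamethasone over mock (y axis), with dashed lines at 2-fold. The line is green where the probe sets share a direction, as in 31 genes, and brown where they do not.

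The plot of genes with several probe sets shows short lines near 0 and a few long ones that cross it. Near the 2-fold limit the classes are arbitrary. AT5G14210 (2.00-fold) was counted as higher and AT3G15980 (1.9997-fold) was not, and AT1G73710 (2.01-fold) was counted as lower and SKP2A (1.998-fold) was not.

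Across the genome the share of probe sets past 2-fold was 2.69% to 3.76% on the 5 chromosomes, counted among probe sets with 1 gene above the floor on at least 1 GR-REV array. The 2 GR-REV arrays correlated at r = 0.963 across probe sets on the log2 scale and the wild type arrays at 0.965, where probe sets are not independent replicates. All 4 arrays had been scaled to one trimmed mean, and 58.9% to 62.9% of probe sets lay above the floor. RCA, the 1 of 8 listed green tissue markers that was matched, was high on all 4 arrays (18365 with dexamethasone and 18575 with mock in GR-REV, against 28804 and 20706 in wild type), as was PYK10 of roots (15758 and 16495, against 10171 and 14189.5). AT5G64100, the other of 2 matched root markers of 7, had 553 and 479 in GR-REV, against 553 and 221 in wild type. Green and root tissue were thus both seen on every array, and none of the listed markers of seed, pollen and flower were matched. Ratios of 3′ to 5′ control signal, a sign of RNA integrity, were 10.1 with dexamethasone and 13.8 with mock in GR-REV for actin, against 13.9 and 9.33 in wild type. For GAPDH they were 1.29 and 1.46, against 1.60 and 1.78. A second pair of actin controls gave 1.95 and 2.92, against 2.86 and 2.17. The second GAPDH pair gave 0.91 and 1.00, against 0.97 and 0.82, and ubiquitin 2.21 and 2.25, against 1.67 and 1.57. Both actin ratios were thus lower with dexamethasone in GR-REV and higher with it in wild type, and their part in the results was not tested.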

How the data were processed

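The deposited table holds 1 intensity per probe set and array on a linear scale, made by the authors with MAS5, per the submitters' processing notes. The MAS5 version is not given in the sources used here. On each array the 2% trimmed mean was 500.05 to 500.06, so no further scaling was applied. Settings files of the scanner were not used.

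Of 22810 probe sets, 64 control probe sets were dropped. Signals were floored at 91.4, the 40th percentile over the 4 arrays, and log2 differences were taken with Python 3.11.15, numpy 2.4.6 and pandas 2.3.3. With 1 array per group the rule was one of size, at least 2-fold, and no test was made. The code was tested on simulated data. Precision is limited by the number of arrays.

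Probe sets were named from the platform annotation, updated through the RefSeq gene table of TAIR10.1 (names only). It gave 1 gene for 13513 probe sets, several for 503 and none listed for 8730, which are unnamed here; 13436 of the 13513 matched RefSeq. Genes were named from probe sets with 1 gene as the 15 highest and 15 lowest above the floor on both arrays, and the 5 largest bounds each way. Added to these were the 8 largest each way with wild type signals at most 25% apart after the floor. The largest members past 2-fold of each gene list, some members under it, the HD-ZIP and clock lists, and the 6 largest opposite differences were also named. Members and lists were chosen with earlier results of these data known. Lists were matched by locus, symbol or synonym, and those with no probe set matched, LITTLE ZIPPER and jasmonate among them, gave no value. Further groups (GDSL-type genes by locus, plastid-encoded genes, symbol families) were added after values had been seen. A planned search for promoter motifs was not run, since no sequences were used here.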

Additional observations from a re-analysis of the deposited data

Results flagged for a closer look

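Among genes named by rule and at least 2-fold different in GR-REV, 9 lay at least 1.5-fold the other way in wild type, and the difference between genotypes was not tested, with 1 array per group. On the log2 scale, dexamethasone over mock in GR-REV, these were AT1G32090 (1.966, against -0.59 in wild type), AT5G50450 (1.17, against -1.64), AT1G02300 (1.131, against -1.24) and SPT (1.383, against -1.02) on the higher side. On the lower side they were AT5G39520 (-2.444, against 0.83), OSM34 (-2.333, against 2.00), AT4G10270 (-2.033, against 0.64), PDF1.2 (-1.892, against 1.07) and AT3G15310 (-1.691, against 1.11). AT2G31110, named for its several probe sets, was opposite too on one of them (1.18, against -0.65).

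Control probe sets outside the comparison also differed. In GR-REV dexamethasone over GR-REV mock, both actin 5′ controls were higher, 1.596-fold and 1.644-fold. The hybridization spike BioB, added at a low amount, was 1.792-fold higher on its 5′ probe set and 1.641-fold higher on its middle one. Its 3′ probe set was below the floor with mock. On a second set of BioB probe sets the excess was smaller, 1.11-fold (5′), 1.11-fold (middle) and 1.33-fold (3′). The part of these in the results was not tested.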

How the results depend on the processing

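The counts past 2-fold upwards and downwards in GR-REV (278 and 275), and of those with a flat wild type pair (123 and 86), depended on the fold threshold and the floor. Placing the floor at the 25th percentile, they were 508 and 510, and 202 and 148; at the 60th percentile 125 and 128, and 66 and 37; with the floor value added to every signal 151 and 151, and 71 and 44. At 1.5-fold there were 976 higher and 1012 lower, and at 3-fold 68 and 48, of which 25 and 8 had a flat wild type pair. Quantile normalization (266 and 266), division by the median (280 and 300) and only probe sets above the floor on both arrays (230 and 237) moved them less, and the treatments of the source names exchange the sides. Quantile normalization shared 259 higher and 260 lower probe sets with the counts above. Of 71 probe sets past 2-fold named by rule, 34 stayed so under each alternative floor and scaling. Under 2-fold fell 36 with the 60th percentile floor, 16 with the floor value added, and PUB25 and XTH16 with quantile normalization. Of 11 more named outside the rule, AT1G22330 not included, psbK alone stayed past 2-fold throughout. Among them 9 fell under it with the 60th percentile floor and 8 with the floor value added. With quantile normalization 3 did, and 1, AT5G14210, once divided by the median. Low signal limits all differences near the floor. No paired analysis was possible because each group has 1 array. Leaving out an array leaves no pair.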
